A study of Solanum lycopersicum with 6 samples.

Results

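The genes followed here encode terpene synthases and the enzymes that supply their isoprenoid precursors, measured in leaves of Micro-Tom, a dwarf cultivar of tomato (Solanum lycopersicum). A gene was a member where its RefSeq symbol or a synonym was TPS5, TPS9, TPS12, TPS20, MTS1, MTS2, GGPS1, GGPS2, HMG1, HMG2, DXS1 or DXR, and all array probes to its RefSeq transcripts were used. Of these 12 names, 9 matched 8 genes, and 7 of the genes had probes, out of 1191 genes with a RefSeq name on the array. They had 12 probes of 43603. HMG2 matched a gene without a probe, and the names TPS20, HMG1 and DXS1 matched no gene, so no probe is analysed under these names. A gene with the symbol DXS, without a number, was not taken as DXS1. It is described below with the other genes of the isoprenoid pathways. Whether DXS is the gene meant by DXS1 was not checked. MTS1 and TPS5 are names of 1 gene, and TPS9 is a synonym of SSTLE1. Leaf discs of 1 cm from 4-week-old plants floated for 12 h under continuous light at 25 °C. The labels also list a cycle of 16 h light and 8 h dark, the same for all samples. The treated discs lay on 300 µM loliolide, which plants form from carotenoids, and the control discs on 0.1% methanol. Each group had 3 samples, each on its own 1-colour Agilent array. The labels mention triplicates without saying whether these came from different plants, so a p-value here covers the spread between samples, which may be technical. Whether the loliolide solution also held methanol is not stated.

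Plants build all isoprenoids from the same small building blocks, made by the mevalonate pathway in the cytosol and by the MEP pathway in plastids. Prenyl transferases join these blocks to longer diphosphates, and terpene synthases turn the diphosphates into the volatile monoterpenes and sesquiterpenes that tomato leaves make largely in glandular trichomes. The plastid precursor GGPP also feeds carotenoids, chlorophyll and gibberellins.

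The methanol samples shared a slide and the loliolide samples shared another one, so a difference between treatments and one between slides cannot be told apart. With 3 arrays per group, the number of arrays limits the precision. Between 84.5% and 87.62% of the spots on an array were well above background. Signals are given as a percentage of the 75th percentile of the same array, which lay between 817.7 and 1117. As a check of the tissue, all 9 probes of the leaf chlorophyll-binding genes CAB4 and CAB6A read well above background on each of the 6 arrays. Of the 14 leaf marker genes found in RefSeq, only these 2 had probes. Of the markers chosen for other tissues, 4 of 20 fruit probes and 2 of 3 root probes also read well above background on each of the 6 arrays. These 4 fruit probes were of PDS, at up to 444%, and of E8. Both of these root probes were of the phosphate transporter PT1, at up to 1015%. The root marker PT4 did so on no array and the 1 pollen and flower probe on fewer than 6. The glandular trichome markers with probes were MTS1, SSTLE1 and TPS12 themselves with CPT1 and PHS1, and 6 of their 8 probes, 4 of which are member probes, did so on each of the 6 arrays. Discs are mixtures of cells, in which fewer cells of a type and less RNA per cell cannot be told apart.

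The series was made to identify loliolide-responsive genes, per its title. None of the 6 terpene synthase and precursor genes tested passed the threshold. Of their 11 probes, 0 had a limma adjusted p under 0.05, against 0.783% of all 37423 probes tested, of which 0.770% were higher and 0.0134% lower with loliolide. Before adjustment the count under 0.05 was 0 of 11, against 20.1% of all probes. With 1 probe per gene, the brightest, 0 of 6 member genes passed, against 1.37% of 28299 genes. The lowest adjusted p, that of MTS1, was 0.379 (limma). The members differed in how steady they were. The probes of the precursor enzymes DXR and GGPS2 read nearly alike on all 6 arrays, while the probes of the terpene synthases MTS1, SSTLE1 and TPS12 differed by 2.92-fold to 6.73-fold between their highest and lowest array. GGPS1 lay between, at 1.91-fold.

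**Figure D1:**
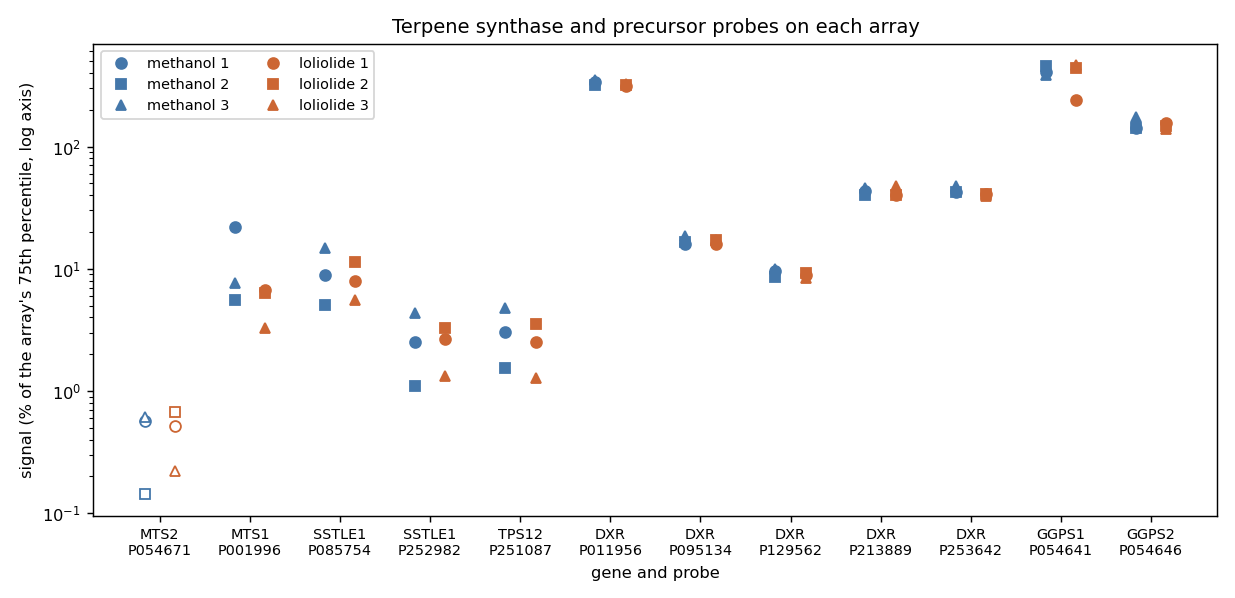
Signal of each of the 12 member probes on each array, as a percentage of that array's 75th percentile on a log axis; blue marks are methanol, orange marks loliolide, the shape gives the replicate number, and open marks show MTS2, which was not tested. The 5 DXR probes and GGPS2 form tight groups, whereas the marks of MTS1, SSTLE1 and TPS12 are spread within both treatments.

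Among the monoterpene synthases, MTS1 (gene 778246, probe A_96_P001996) encodes a linalool synthase and is annotated in RefSeq assembly SLM_r2.1 on chromosome 1, from 89941661 to 89944614. Its signal was 22.1%, 5.53% and 7.65% on methanol arrays 1, 2 and 3. With loliolide it was 6.69%, 6.39% and 3.28% on arrays 1, 2 and 3. The first methanol array stood far above the other 5, loliolide array 3 was the lowest, and the groups overlapped because methanol array 2 lay below loliolide arrays 1 and 2. The log2 signal was -3.36 ± 1.04 (SD, n = 3) with methanol and -4.27 ± 0.58 (SD, n = 3) with loliolide. The difference of -0.91 (SE 0.54, limma adjusted p = 0.379) had a 95% interval from -2.20 to 0.37, or 0.218-fold to 1.30-fold. Without methanol replicate 1 it was -0.32.

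MTS2 (gene 778247, probe A_96_P054671), also called TPS4, encodes another monoterpene synthase and is the neighbour of MTS1. It lies on chromosome 1 from 89926371 to 89928963 of SLM_r2.1, with 12697 bases and no annotated gene between them. The scanner flagged the MTS2 probe as well above background on 0 of 3 methanol arrays and 1 of 3 loliolide arrays. It was therefore not tested, and no difference is given for it.

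The sesquiterpene synthases SSTLE1 and TPS12 are neighbours too, on chromosome 6. SSTLE1 (gene 543549, from 40311004 to 40314015 of SLM_r2.1) encodes a germacrene synthase, and TPS12 (gene 104648118, from 40339818 to 40351059), which also carries the synonym CAHS, encodes a caryophyllene and humulene synthase. Between them lie 25802 bases with 3 annotated loci, none of which has a probe on the array.

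The brighter SSTLE1 probe, A_96_P085754, read 8.87%, 5.05% and 14.8% on methanol arrays 1, 2 and 3. It read 7.96%, 11.4% and 5.59% on loliolide arrays 1, 2 and 3. Methanol array 3 was the highest and methanol array 2 the lowest, so the control samples spanned the whole range of the treated ones. The log2 difference was -0.13 (SE 0.42, limma adjusted p = 0.893), with a 95% interval of 0.455-fold to 1.84-fold.

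The other SSTLE1 probe, A_96_P252982, read 2.50%, 1.11% and 4.35% with methanol and 2.66%, 3.25% and 1.32% with loliolide. Its groups overlapped in the same way, and it differed by -0.02 (SE 0.54, limma adjusted p = 0.984). TPS12, with probe A_96_P251087, read 3.06%, 1.53% and 4.78% with methanol. On the loliolide arrays it read 2.52%, 3.51% and 1.27%. Again methanol array 3 was the highest, loliolide array 2 came next, and methanol array 2 and loliolide array 3 were the lowest. The TPS12 difference was -0.33 (SE 0.50, limma adjusted p = 0.7498), with a 95% interval of 0.345-fold to 1.83-fold.

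These sesquiterpene synthase probes went up and down together from disc sample to disc sample, whatever the treatment. Over the 6 arrays the log2 signal of TPS12 had an SD of 0.73 and that of the brighter SSTLE1 probe an SD of 0.59, while the log2 ratio of SSTLE1 to TPS12 had an SD of 0.21. With the other SSTLE1 probe the ratio to TPS12 also had an SD of 0.21, and the log2 ratio between the probes of SSTLE1 itself had an SD of 0.22. So SSTLE1 tracked TPS12 about as closely as the probes of SSTLE1 tracked each other. This was not particular to terpene synthases or to neighbours. Closeness was also ranked by the root mean square distance between log2 signals, each centred on its own mean. By this measure ca2 on chromosome 2 (0.082) and CHS1 on chromosome 9 (0.16) lay closer to TPS12 than SSTLE1 did (0.19). MTS1 did not follow them to this degree: the log2 ratio of MTS1 to TPS12 had an SD of 0.78, with methanol array 1 apart. These are descriptions of 6 arrays that share slides and labelling. The files used here hold no probe sequences, so whether a probe also binds the transcript of a related synthase was not tested.

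**Figure D2:**
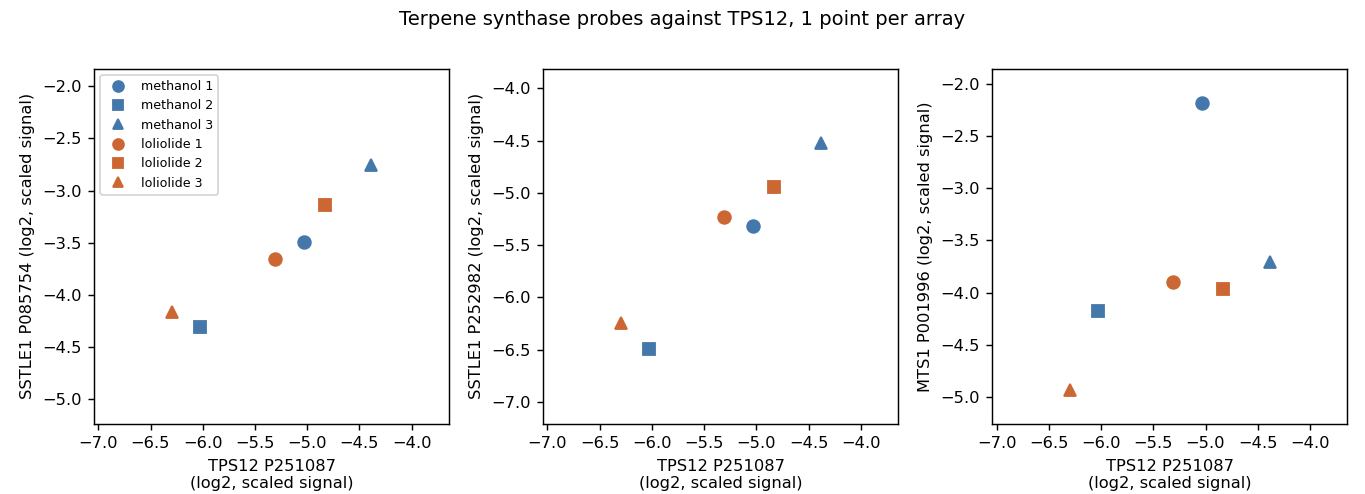
Log2 scaled signal of both SSTLE1 probes and of MTS1 against TPS12, 1 point per array, blue for methanol and orange for loliolide, with axes of equal length. Both SSTLE1 panels run along the diagonal with methanol replicate 3 at the top and methanol replicate 2 and loliolide replicate 3 at the bottom, and in the MTS1 panel methanol replicate 1 stands apart.

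The spread of the terpene synthases within a treatment was wide for this array. Their 4 tested probes had within-group SDs of 0.66 to 0.85 on the log2 scale, and 1.66% of all 37423 tested probes had an SD as high as the lowest of these. Among the 6689 probes of the same signal range, each above background on all 6 arrays, the share was 1.91%. Other trichome and leaf genes are set beside this. CPT1, the trichome prenyl transferase that makes the precursor for PHS1, read 2.30%, 1.25% and 1.75% with methanol and 2.63%, 2.99% and 1.40% with loliolide. Methanol array 2 and loliolide array 3 were low in CPT1, as they were in TPS12. Methanol array 3, the highest in TPS12, lay in CPT1 below methanol array 1 and loliolide arrays 1 and 2. PHS1, a phellandrene synthase of trichomes, read 1.77%, 1.23% and 1.39% with methanol and 1.53%, 1.30% and 1.49% with loliolide on its tested probe. In PHS1 methanol array 2 was the lowest, but loliolide array 3 was not low, and the within-group SD was 0.21. The leaf marker CAB4 was variable as well, with within-group SDs of 0.65 to 0.84 over its 7 probes, and its probe A_96_P000883 read 549%, 353% and 783% with methanol and 1122%, 569% and 380% with loliolide. The part of these markers in the spread of the terpene synthases was not tested.

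DXR (gene 543682, chromosome 3 from 61126286 to 61131651 of SLM_r2.1) encodes the reductoisomerase of the MEP pathway, the step after DXS. It had 5 probes, all well above background on all 6 arrays. Its brightest probe, A_96_P011956, read 339.6%, 321.6% and 352.5% with methanol. With loliolide it read 312.2%, 316.6% and 323.1%. The groups overlapped narrowly, and the difference was -0.09 (SE 0.09, limma adjusted p = 0.589). The widest DXR difference, -0.12 (SE 0.09, limma adjusted p = 0.497), belonged to A_96_P253642, at 42.7%, 42.3% and 47.7% with methanol and 41.1%, 41.3% and 39.7% with loliolide. Its groups did not overlap, which was so for 1 of the 11 member probes and for 29.5% of all probes. The 3 other DXR probes differed by -0.08, -0.03 and -0.01. Over the 5 probes, the 95% intervals ran from 0.791-fold to 1.18-fold.

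GGPS1 and GGPS2 encode geranylgeranyl diphosphate synthases, which make GGPP. The GGPS1 probe (gene 778310, A_96_P054641, chromosome 11 from 4873236 to 4874477 of SLM_r2.1) read 404.4%, 455.6% and 385.7% with methanol and 241.1%, 438.3% and 461.1% with loliolide. Loliolide array 1 was the lowest of all, the other loliolide arrays lay within or above the methanol values, and the groups overlapped. GGPS1 differed by -0.18 (SE 0.25, limma adjusted p = 0.722), and by 0.12 without loliolide replicate 1. The GGPS2 probe (gene 778360, A_96_P054646, chromosome 4 from 66137663 to 66138955) read 141.6%, 141.5% and 174.1% with methanol and 157.1%, 147.1% and 138.2% with loliolide. Its groups overlapped, and it differed by -0.04 (SE 0.12, limma adjusted p = 0.873), with a 95% interval of 0.798-fold to 1.18-fold.

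**Figure D3:**
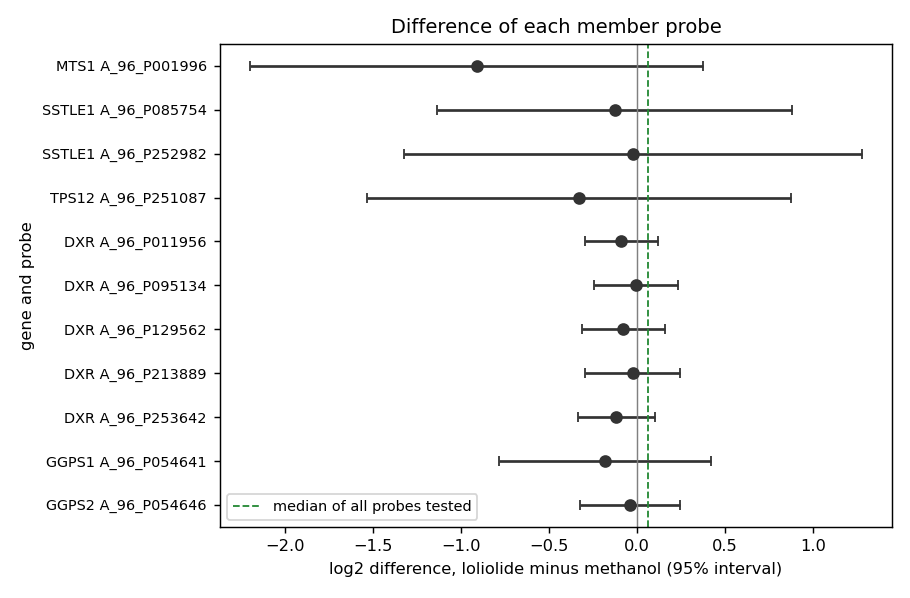
Log2 difference, loliolide minus methanol, of each of the 11 tested member probes with its 95% interval from limma; the dashed line is the median of all probes tested, 0.06. Every interval contains 0, and those of MTS1, SSTLE1 and TPS12 are several times wider than those of DXR and GGPS2.

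The point estimates of all 11 member probes lay below 0, where 39.2% of all tested probes did. Their median difference was -0.09, against 0.06 for all probes. By the brightest probe, 6 of 6 member genes lay below 0, against 35.0% of all genes. The 11 probes come from 6 genes, 5 of them from DXR, so they are not independent, and no probe passed. The sign did not hold throughout. With median centring, quantile normalisation, cyclic loess and scaling to spike-in controls, 11 of 11 stayed below 0, and the spike-in scaling moved the median of all probes to -0.24 and that of the members to -0.39. With normexp background correction 8 of 11 were below 0, with array weights 6, and without methanol replicate 3 it was 5, and without loliolide replicate 3 it was 7. Without methanol replicate 3, SSTLE1 differed by 0.25 and 0.44 on its probes, and TPS12 by 0.05.

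**Figure D4:**
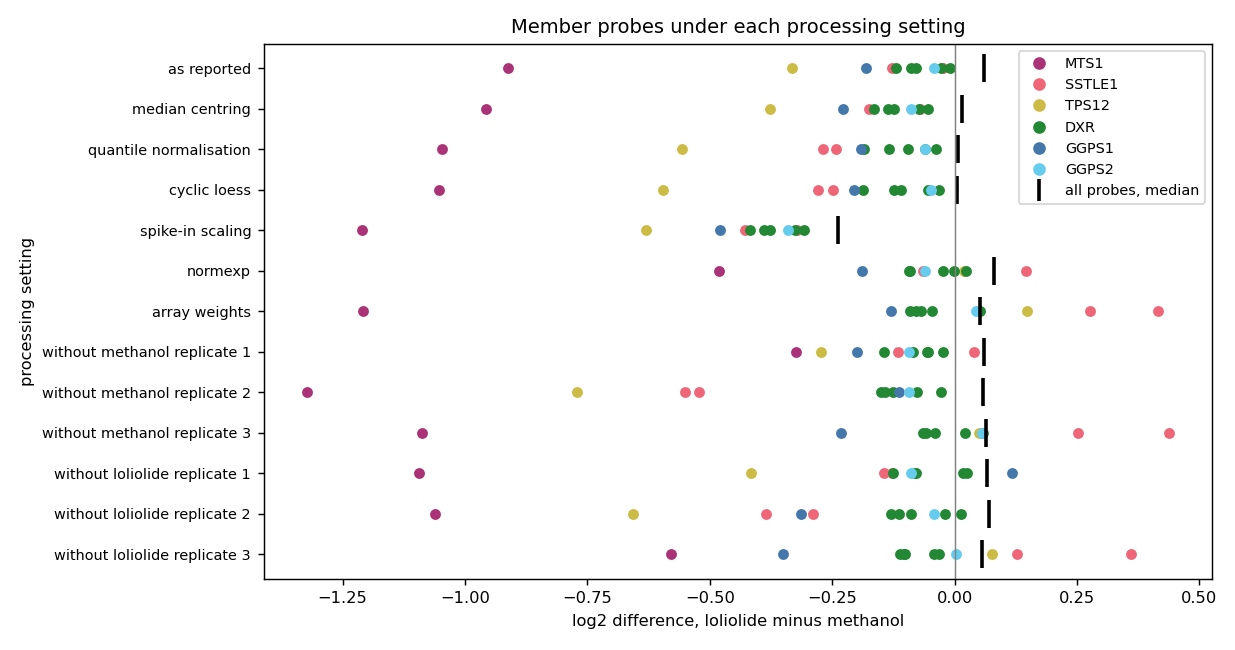
Log2 difference of each of the 11 tested member probes, coloured by gene, under 13 ways of processing the arrays, with a black bar for the median of all probes tested. MTS1 lies at the left in every setting shown, from -1.32 to -0.32, while SSTLE1 and TPS12 lie on either side of 0 depending on the arrays used.

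Other genes of the isoprenoid pathways were then described from lists by symbol. Of 44 RefSeq genes on these lists, 15 had probes, and 1 of their 41 tested probes passed, a Psy1 probe, against 0.783% of all probes. In the MEP pathway, DXS, the entry enzyme, had higher values with loliolide on both of its probes, by 0.38 (SE 0.21) and 0.41 (SE 0.21), without passing (limma adjusted p = 0.362 and 0.327). On DXS probe A_96_P012066 the signals were 364.3%, 350.6% and 506.0% with methanol and 676.0%, 491.9% and 428.3% with loliolide. Methanol array 3 lay above loliolide arrays 2 and 3, so the groups overlapped. HDR, the last enzyme of that pathway, differed by -0.39 to 0.08 over its 6 probes, and HDS, the enzyme before it, by 0.09. Of these 9 MEP probes 0 passed (0.783% of all probes), 1 of HDR had an unadjusted p under 0.05 in limma (20.1% of all), and 3, all of HDR and lower with loliolide, had groups that did not overlap (29.5% of all). Their median difference was 0.08.

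In the mevalonate pathway, 0 of 8 probes passed, against 0.783% of all probes, and 1 had an unadjusted p under 0.05 in limma, against 20.1%. The median difference was -0.11, and 1 of the 8 had groups that did not overlap, against 29.5% of all probes. The isomerase IDI2 differed by -0.07 and -0.02, and FPPS1, which makes the farnesyl diphosphate used by sesquiterpene synthases, by -0.16 and -0.08. The mevalonate diphosphate decarboxylase MDC ranged from -0.35 to 0.25 over 4 probes. Of the prenyl transferases, GPS differed by -0.26 to -0.02 over 3 probes and CPT1 by 0.38 (SE 0.34, limma adjusted p = 0.561). Among further terpene synthases, PHS1 differed by -0.01. CPS, the copalyl diphosphate synthase that opens gibberellin synthesis, read 0.580%, 0.663% and 0.381% with methanol and 1.34%, 0.899% and 0.681% with loliolide. Its probe exceeded background well on 1 of 3 methanol arrays and 3 of 3 loliolide arrays. It entered the test through the loliolide group alone and did not pass. No fold is given in the text because the methanol level of CPS is poorly measured.

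The enzymes at the branch points below the precursors had lower values on 17 of 18 probes, against 39.2% of all probes, with a median of -0.34. Groups did not overlap on 10 of 18, 9 of them lower and 1 higher with loliolide, against 29.5% of all probes. The 18 probes come from 4 genes, 8 of them from Psy1, and are not independent. The squalene synthase SQS1 and the cycloartenol synthase CAS1, which lead to sterols, were the most uniform. CAS1 read 340.5%, 268.6% and 210.6% with methanol on probe A_96_P027786 and 166.6%, 185.6% and 150.0% with loliolide. Every loliolide array lay below every methanol array, and the difference was -0.68 (SE 0.19, limma adjusted p = 0.136). The other CAS1 probes differed by -0.64 and -0.52, likewise without overlap and without passing. The carotenoid entry gene PSY2 differed by -0.54 to -0.11 over 4 probes with overlapping groups. The 1 Psy1 probe that passed, A_96_P088204, rose 1.64-fold (limma adjusted p = 0.0338), while the 7 other Psy1 probes lay between -0.35 and -0.11 and none of them passed. A_96_P088204 was the brightest, so with 1 probe per gene Psy1 passed as higher (limma adjusted p = 0.0268). Yet A_96_P088239, A_96_P088249 and A_96_P223354 were lower without overlap (unadjusted p in limma 0.035, 0.044 and 0.028). By probe, the Psy1 call was lost with cyclic loess, with the spike-in scaling, with the replicate block and without any 1 of the 6 arrays, each of which left 0 of the 41 probes.

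**Figure D5:**
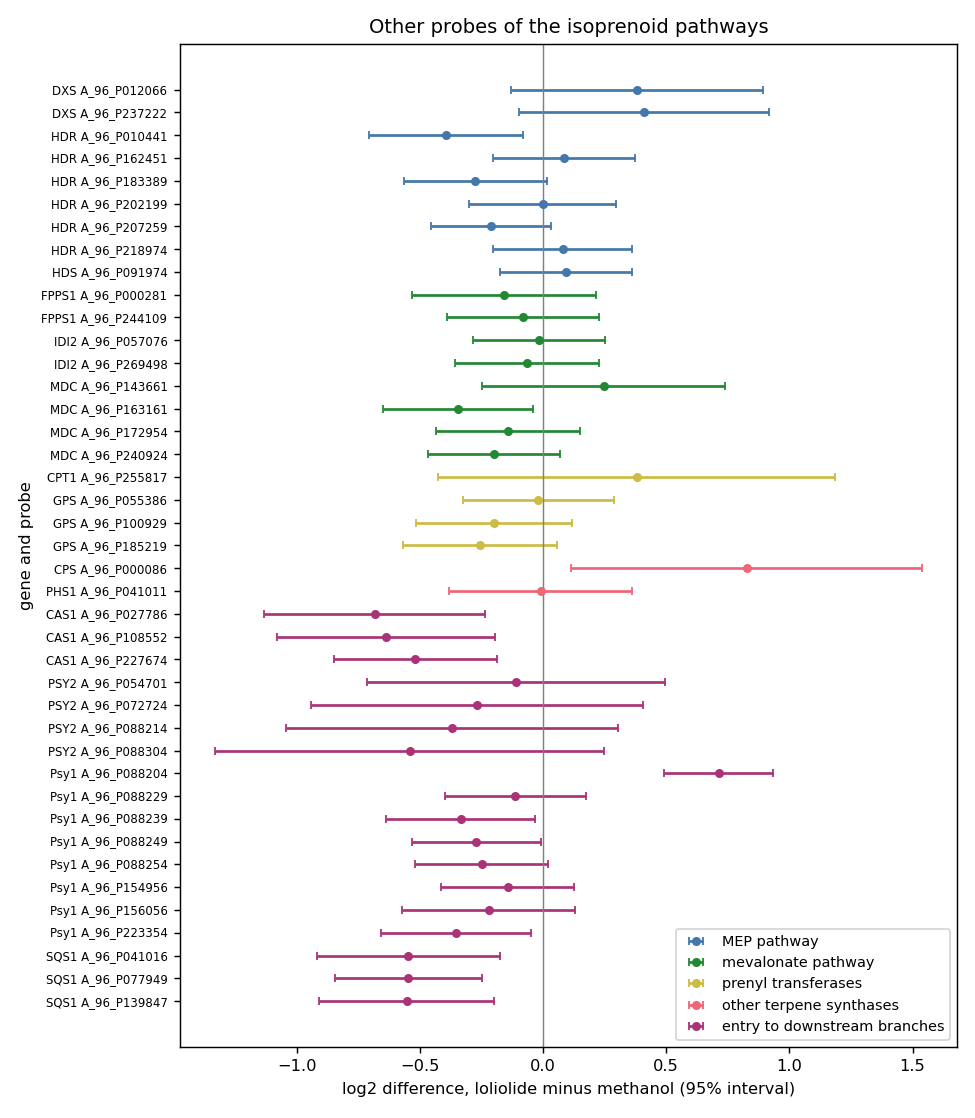
Log2 difference, loliolide minus methanol, with its 95% interval for the 41 tested probes of other isoprenoid genes, coloured by list. Intervals of the precursor pathways mostly cover 0, the 6 probes of SQS1 and CAS1 lie together between -0.68 and -0.52, and 1 Psy1 probe lies apart from the 7 others.

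MTS1, the member gene with the smallest unadjusted p, and GGPS1, the brightest, were set against other named genes. Likeness was ranked by the root mean square distance between log2 signals over the 6 arrays, each centred on its own mean. Over 814 other named genes, the closest to MTS1 were LOX1.1 at 0.32, GABA-TP2 at 0.36, gad2 at 0.40, and yfe37 and HYD2 at 0.47 each, where the MTS1 signal itself departed from its mean by 0.83 and the median distance over the 814 genes was 0.86. The closest to GGPS1 were DDTFR18 at 0.12, AOX1a at 0.13, ODD at 0.14, and ChrC and AOS2 at 0.15 each, where GGPS1 departed by 0.32 and the median distance was 0.36.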

How the data were processed

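The 6 RNA samples, 500 ng each, carried the dye Cy3, per the labels' protocols. The authors deposited scanner files whose spot intensity Agilent Feature Extraction had corrected for background, in version 11.5.1.1 per the file headers and 9.1 per the submitters' processing notes, with no scaling between arrays. Other flags that they deposited per spot mark outliers, saturation and signals well above background. A deposited workbook sheet gives log2 ratios of 27 probes, 0 of them members. It equals the scaled scanner differences up to 1 constant per pair.

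Outlier spots, at most 5 per array, were left out. Signals were divided by the array's 75th percentile (control spots left out) and put on the log2 scale. A probe entered the test if all arrays of either group flagged it as well above background. The test was limma's moderated test (limma 3.58.1, R 4.3.3, lmFit then eBayes), adjusted by Benjamini-Hochberg across all tested probes at 0.05. Names came from RefSeq genes of assembly SLM_r2.1, which named 2576 probes of 1191 genes. The files name no genome build, and coordinates are those of RefSeq. The members and lists were chosen with earlier results of these data known. Named were all members and, per list, genes past the threshold and up to 4 others of lowest p. TPS1, SPS and GSH1 were left out of the lists because their names are shared with enzymes of other pathways. The comparison of loliolide with methanol was tested on simulated data of 37413 independent probes: of those given a 2-fold change 80 of 100 passed, of those given a 4-fold change 99 of 100, and 15 probes without a change passed as well. The changed probes were drawn at random from all of these. Over all tested probes the median within-group SD was 0.17, against 0.66 to 0.85 for the terpene synthase probes. The shares that passed therefore cannot be carried over to the terpene synthases. Alternatives covered background correction, scaling, the filter, the variance model, array weights, the replicate number and each array left out.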

Additional observations from a re-analysis of the deposited data

How the results depend on the processing

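No member probe passed a limma adjusted p of 0.05 under any of the 17 other settings. With the spike-in scaling 3 of 11 member probes had an unadjusted p under 0.05 in limma, against 7846 of all 37423 probes. Without its dimmest spike-in, a setting added after seeing the data, it was 4 of 11, against 8565 of 37423. Without methanol replicate 2 it was 1 of 11, against 5143 of 37479. In the other settings no member probe was under 0.05. As reported 293 of all probes changed. The count was 95 with normexp on median signals, 107 with quantile normalisation, 189 with median centring, 102 with cyclic loess, 65 with the spike-in scaling, 190 when all 6 arrays had to be well above background, 154 with a variance trend and robust eBayes and 2538 with array weights. Without each array in turn it ran from 0 to 105, and the 0 came without loliolide replicate 1, where limma put 5924 probes under an unadjusted 0.05. With the replicate block limma called 0 of all probes, 5185 of which had an unadjusted p under 0.05, and 0 other pathway probes. The labels do not say that a number pairs samples, so the numbers were not taken as pairs in the main test. The deposited log2 ratios do pair same-numbered arrays. Deviations of same-numbered arrays from their group means had negative correlations, of -0.16, -0.14 and -0.46. Of the other pathway probes 1 passed as reported, and 0 with cyclic loess, the spike-in scaling or any array left out. With array weights 4 of the 41 passed, where 2538 of all 37423 probes did. Member differences changed sign with normexp for DXR A_96_P095134 (0.0225), SSTLE1 A_96_P252982 (0.147) and TPS12 (0.0196). They did with array weights for the same DXR probe (0.0513), GGPS2 (0.0430, and 0.0417 by gene), SSTLE1 (0.28 and 0.415) and TPS12 (0.15). Without each array in turn DXR A_96_P095134 ran from -0.0565 to 0.0580, DXR A_96_P213889 from -0.11 to 0.0203, GGPS1 from -0.35 to 0.12, GGPS2 from -0.0923 to 0.057, SSTLE1 A_96_P085754 from -0.52 to 0.25, SSTLE1 A_96_P252982 from -0.55 to 0.44 and TPS12 from -0.77 to 0.0768. The cause was not tested. The normexp correction used median signals, since the files used here hold no mean signal, and its offset of 50 shrinks differences of dim probes by construction. A block for the slide could not be fitted, since each slide held 1 group. Signal over background limits MTS2.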

Other observations

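The genes nearest in pattern to the sesquiterpene synthases were looked up after the values were seen, and the lists are a description of 6 arrays. Among 814 other named genes, the one nearest to TPS12 was ca2, at a root mean square distance of 0.082 on the log2 scale, where TPS12 departed from its own mean by 0.66 and the median distance over all these genes was 0.71. CHS1 followed at 0.16, SSTLE1 at 0.19, CHS2 at 0.26 and cel5 at 0.28. For the brighter SSTLE1 probe TPS12 was the nearest of the 814, at 0.19, followed by ca2 at 0.20, CAT2 and SEND33 at 0.23 and 0.24, and XET4 at 0.25. CHS1 and CHS2 are chalcone synthases, which open flavonoid synthesis. They differed between treatments by -0.35 and -0.78, and ca2 by -0.40.

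TPS1 was left out of the lists because trehalose phosphate synthase shares its name. Its 3 probes were higher with loliolide by 0.85, 0.86 and 0.88 on the log2 scale, without passing (lowest limma adjusted p = 0.124). Their groups did not overlap, which was so for 29.5% of all probes. With TPS1, SPS and GSH1 added, 1 of 50 other pathway probes passed, against 0.783% of all probes.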
